A study of Homo sapiens with 16 samples.

Results

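The poly(A)-binding proteins and their regulators were represented by 5 genes, PABPC1, PABPC4, PABPN1, PAIP1 and PAIP2, chosen by name from the 10823 genes listed in the deposited values. RNA and ribosome-protected mRNA footprints (RPFs) had been sequenced from the same lysates of 4 lines, in duplicate, which gave 16 libraries. Parental MDA-MB-231 cells are a human triple-negative breast cancer line labelled poorly metastatic, and MDA-LM2 is its highly metastatic derivative, selected for growth in the lung. sgControl and sgHNRNPC are MDA-MB-231 cells that share a dCas9-KRAB repressor and carry either a control guide RNA or a guide that silences HNRNPC by CRISPR interference. HNRNPC is a nuclear protein that binds tracts of uridines, and the study names PABPC4 as its partner in the choice of poly(A) sites. Values were normalised counts, and translational efficiency (TE) is the ratio of RPF to RNA. The parental and MDA-LM2 libraries (10799 genes) and the sgControl and sgHNRNPC libraries (8980 genes) were normalised in separate tables, so levels of the 2 pairs are only set side by side.

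The poly(A) tail at the 3′ end of an mRNA is coated by poly(A)-binding proteins. In the nucleus PABPN1 stimulates poly(A) polymerase and sets the length of the new tail. In the cytoplasm PABPC1, and its relative PABPC4, hold the tail and contact the cap-binding complex through eIF4G, which favours translation and protects the message. PAIP1 binds the cytoplasmic proteins and stimulates translation, while PAIP2 displaces them from the tail and inhibits it. The PABPC1 mRNA is itself a TOP mRNA: it starts with a run of pyrimidines that places its translation under growth control.

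A uridine tract was searched for, a C followed by 6 U (CTTTTTT in the DNA letters of the mRNA strand, searched on that strand only). The text of the study speaks of poly(U) motifs bound by HNRNPC, and the exact letters were set for this search. The tract occurred in the annotated 3′ UTR of 4 of the 5 genes. It occurred once in PABPC4, PABPN1 and PAIP2, 3 times in PAIP1, and not in the 445 bases of the PABPC1 3′ UTR. Of the tested genes with an annotated 3′ UTR, 43.4% in the MDA-LM2 table and 42.0% in the knockdown table held the same letters. The 6 tracts are shown because HNRNPC, the silenced gene, binds such sequence. Each is 30 bases, 5′ to 3′ on the mRNA strand of hg38, with the searched letters in capitals. A match is a description of sequence and not a measured binding site.
PABPC4, chr1:39560900-39560929, minus: gacagtgttaaCTTTTTTtttattgtgggt
PABPN1, chr14:23326006-23326035, plus: ttttcctttgcCTTTTTTcccttttatttg
PAIP1, chr5:43526979-43527008, minus: aatgtagcatcCTTTTTTaggtaggagtat
PAIP1, chr5:43526718-43526747, minus: ctagaattgttCTTTTTTatttttattttt
PAIP1, chr5:43526603-43526632, minus: ggttgcatcgaCTTTTTTactagagaattt
PAIP2, chr5:139369084-139369113, plus: taccaaattgtCTTTTTTtgaggctaatct

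All 5 genes were abundant enough to be tested in both tables (mean RNA and mean RPF values of 10 or more). On hg38, the representative transcripts lay on chromosome 8 from 100702916 to 100722088 (PABPC1, minus strand), chromosome 1 from 39560816 to 39576790 (PABPC4, minus), chromosome 14 from 23321457 to 23326163 (PABPN1, plus), chromosome 5 from 43526267 to 43557077 (PAIP1, minus) and chromosome 5 from 139341854 to 139369717 (PAIP2, plus). Their mRNAs were 2861, 3142, 1811, 2780 and 1456 bases long, with coding sequences of 1911, 1983, 921, 1440 and 384 bases, in that order.

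The silenced gene was checked first. HNRNPC RNA was 2162 and 2146 in sgControl and 1147 and 1183 in sgHNRNPC, a change of -0.89 ± 0.05 (log2, SE, n = 2 per group), with an adjusted p of 5.14e-28 by limma. HNRNPC RNA was 2768 and 2664 in parental cells and 2197 and 1930 in MDA-LM2 cells, a change of -0.40 ± 0.12 with an adjusted p of 0.0618 by limma. VIM, CD44, AXL and CAV1, markers of the mesenchymal state of MDA-MB-231, were listed in both tables. Of these 4, 1 was called lower (adjusted p under 0.05 by limma) in RNA of MDA-LM2 and 2 in its RPFs. After the knockdown 2 were called lower in RNA. Of all genes tested, 15.2%, 12% and 16% were called in these 3 results, in either direction. The receptor genes ESR1 and PGR and the leukocyte genes PTPRC and CD3E were listed in neither table. Of the same lists ERBB2 was listed in both tables, at 812 and 797 in parental RNA, as was CD68, a lysosomal protein gene of macrophages. CD68 RNA was 306 and 318 in parental cells, 279 and 500 in MDA-LM2, 724 and 751 in sgControl and 887 and 1016 in sgHNRNPC, and it rose after the knockdown by 0.36 ± 0.06 (adjusted p 3.83e-06 by limma). The summed RNA of the epithelial genes EPCAM, KRT19 and CLDN4 was 7827 and 7579 in parental cells and lower in MDA-LM2, at 1368 and 1185. In the separately normalised knockdown pair it was 1149 and 1187 in sgControl and 1164 and 1071 in sgHNRNPC. Of 5 fibroblast genes, COL1A2, DCN and LUM were listed in neither table, and COL1A1 and PDGFRB only for parental and MDA-LM2 cells. COL1A1 RNA was 9.97 and 21.0 in parental cells and 580 and 879 in MDA-LM2, while PDGFRB RNA was 44.3 and 37.97 against 24.4 and 15.96. The part of these differences in the results of either comparison was not tested.

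Each RNA library's low values were whole multiples of a single step between 0.883 and 1.11. The step was inferred from the spacing of these values and was not established as 1 read. If it is 1 read, the members' RNA values stood for between 356 reads (PABPN1, sgControl) and 11276 reads (PABPC1, sgHNRNPC). RPF values lay on no such step, so the depth of the RPF libraries is unknown. The methods allow RPF counts to be taken as they are or after smoothing of stalling peaks along the transcript, and which was done for these values is not given in the sources used here, so every RPF and TE value may be of either kind. Over all members, RPF values ran from 48.3 to 388 in parental and MDA-LM2 libraries and from 11.4 to 91.9 in sgControl and sgHNRNPC libraries.

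PABPC1 was the most abundant member in RNA in all 4 lines. Its RNA per kilobase of mRNA lay at percentile 96.6 of the 8208 genes ranked in parental cells and 98.1 in MDA-LM2, and at 98.7 and 98.8 of 4190 genes in sgControl and sgHNRNPC. PABPC4 lay at percentile 87.8, 83.9, 80.6 and 82.4 in the same order of lines, and PABPN1 at 87.3, 88.3, 67.7 and 70.6. PAIP2 lay at 81.3, 82.7, 86.1 and 85.2, which put it below PABPC4 and PABPN1 in parental and MDA-LM2 cells and second to PABPC1, apart from PABPC4, in sgControl and sgHNRNPC. PAIP1 lay at 59.9, 59.6, 69.0 and 69.5, the lowest of the 5 in each line but sgControl, where PABPN1 had the lower mean. Per kilobase of coding sequence, the RPF order differed from the RNA order, because PAIP2, the short inhibitor, ranked second to PABPC1 in parental and MDA-LM2 cells. In sgControl and sgHNRNPC PAIP2 had the highest RPF mean, but its replicates overlapped those of PABPC1. In RNA, PABPC4 and PABPN1 overlapped in parental cells, and PABPN1 and PAIP1 overlapped in sgControl and in sgHNRNPC.

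**Figure D1:**
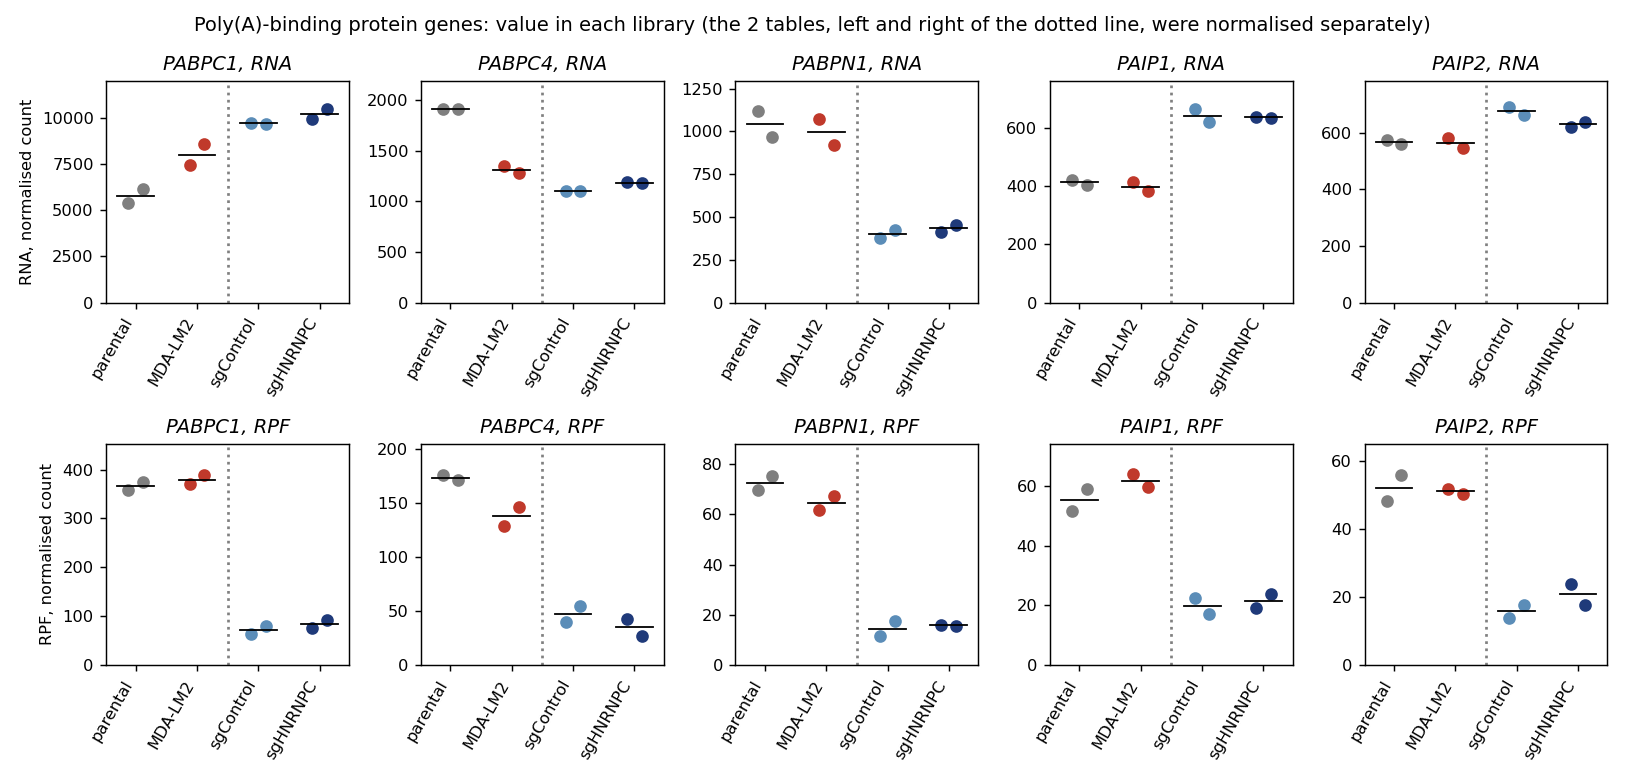
Normalised count (y axis, from 0) of each gene in RNA (top) and RPF (bottom) libraries of the 4 lines (x axis). Points are single libraries and black lines are means of 2; the lines left and right of the dotted line were normalised separately. PABPC4 RNA is 1910 and 1911 in parental and 1345 and 1279 in MDA-LM2 cells.

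Setting MDA-LM2 against parental cells asked which members differ between the highly metastatic line and its parent. PABPC4 RNA was lower in MDA-LM2. PABPC1 RNA was higher in both MDA-LM2 libraries than in both parental libraries without passing the test. The changes of the other 3 genes lay between -0.06 and -0.01 on the log2 scale. Groups without overlap are named here and below as a description only. No exact permutation p of 2 against 2 libraries falls below 0.3333, and the share of all genes without overlap was not counted. Of the 5 members, 1 was called in RNA, where 15.2% of all 8393 genes tested were called (487 higher and 792 lower, or 994 and 498 after rescaling to equal totals).

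RNA of PABPC4, the cytoplasmic relative of PABPC1, was 1910 and 1911 in the 2 parental libraries and 1345 and 1279 in the 2 MDA-LM2 libraries. Both MDA-LM2 libraries lay below both parental libraries. The change was -0.54 ± 0.11 (log2, SE, n = 2 per group; 95% interval -0.79 to -0.29), with an adjusted p of 0.0175 by limma. Since the lysates were bulk samples, fewer cells that express a gene and less RNA per cell cannot be told apart. The change lay at percentile 8.9 of the changes of all genes tested. The call was lost without parental replicate 1 (adjusted p 0.247 by limma) and without parental replicate 2 (0.211), with the change at -0.54 in both cases. In RPFs PABPC4 was 176 and 171 in parental cells and 129 and 147 in MDA-LM2 cells, again without overlap. That change was -0.33 ± 0.13 (95% interval -0.59 to -0.08) with an adjusted p of 0.0777 by limma, which missed the threshold.

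PABPC1, the main cytoplasmic protein, had an RNA value of 5371 and 6164 in parental and of 7472 and 8570 in MDA-LM2 libraries. The replicates within each line differed more than those of PABPC4, and the groups did not overlap. The change was 0.48 ± 0.14 (95% interval 0.16 to 0.80) with an adjusted p of 0.0575 by limma. It passed the threshold after rescaling to equal totals, where the change was 0.65 and the adjusted p 0.0212 by limma, while the median change of all genes moved from -0.02 to 0.15; PABPC4 was -0.37 with an adjusted p of 0.0354 on that scale. Its RPF value was 358 and 375 in parental and 370 and 388 in MDA-LM2 cells, which overlapped, with a change of 0.05 ± 0.10 (95% interval -0.15 to 0.25).

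The nuclear protein gene PABPN1 had RNA values of 1119 and 967 in parental and 1075 and 922 in MDA-LM2 cells, a change of -0.06 (95% interval -0.37 to 0.25). PAIP1, the activator, had RNA values of 422 and 406 against 413 and 384, a change of -0.05 (-0.32 to 0.21). PAIP2, the inhibitor, had RNA values of 575 and 562 against 581 and 547, a change of -0.01 (-0.27 to 0.25). All 3 overlapped between the lines, and the sign of PABPN1, PAIP1 and PAIP2 turned after rescaling to equal totals (0.11, 0.12 and 0.16). RPF values were 69.8 and 75.5 against 61.6 and 67.2 for PABPN1, 51.5 and 59.1 against 63.8 and 59.5 for PAIP1, and 48.3 and 56.1 against 51.8 and 50.5 for PAIP2. The lines overlapped for PAIP2 and did not overlap for PABPN1 or PAIP1, whose changes were close in size to their SE. The RPF changes were -0.17 ± 0.17, 0.16 ± 0.18 and -0.02 ± 0.19, and no member was called in RPF, where 12% of all genes were called (420 higher and 590 lower, or 566 and 477 after rescaling to equal totals).

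No member was called in TE in this comparison, where 0.0357% of genes, 3 of 8393, were called and 455 had an unadjusted p under 0.05. The change in TE of PABPC1 was -0.43 ± 0.16 (95% interval -0.77 to -0.09), with an unadjusted p of 0.0178 and an adjusted p of 0.890 by limma. The binomial logistic regression of the study, which takes normalised values as reads and not the spread between replicates as error, gave PABPC1 a change of -0.43 with an adjusted p of 9.00e-06. With RPF divided by RNA of the same replicate number, the TE of PABPC1 was 0.0667 and 0.0608 in parental and 0.0495 and 0.0453 in MDA-LM2 cells. Both MDA-LM2 values were the lower ones, but the tests did not take these numbers to pair the libraries. PABPC4 changed by 0.21 ± 0.16 in TE, PAIP1 by 0.21 ± 0.21, PABPN1 by -0.11 ± 0.20 and PAIP2 by -0.01 ± 0.20, with adjusted p-values of at least 0.935 by limma.

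**Figure D2:**
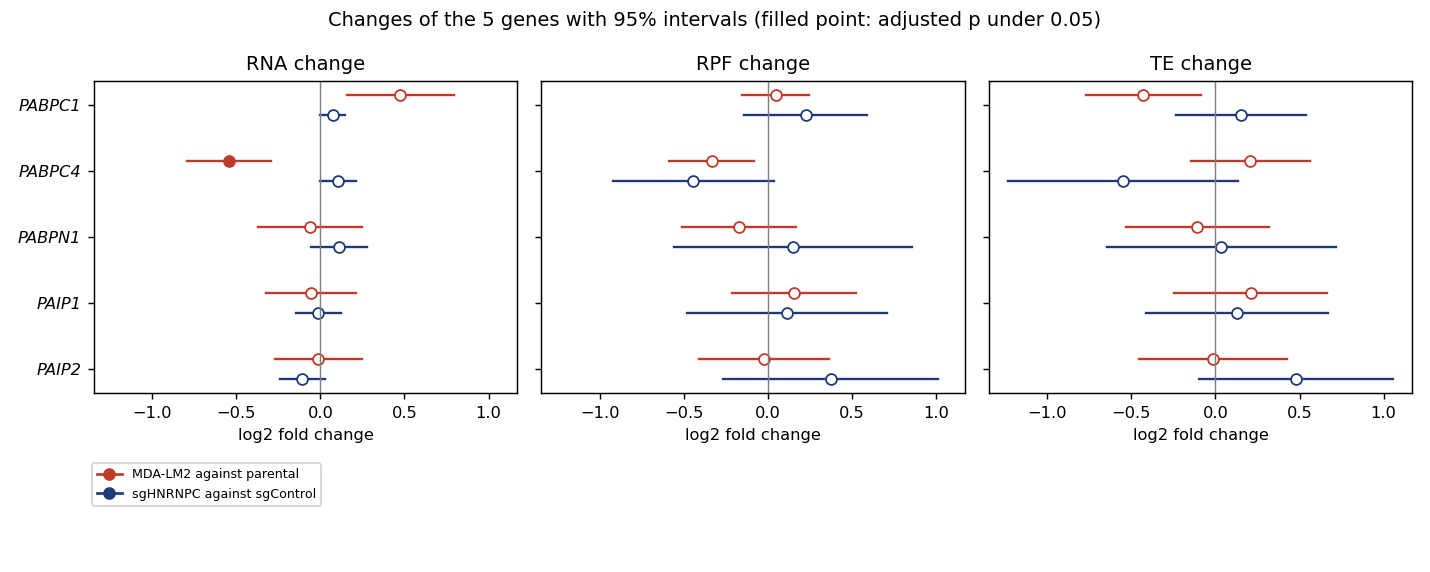
Log2 change (x axis) in RNA, RPF and TE of each gene (y axis), for MDA-LM2 against parental (red) and sgHNRNPC against sgControl (blue); lines are 95% intervals from limma with n = 2 per group. The only filled point, with an adjusted p under 0.05, is PABPC4 in RNA of MDA-LM2, at -0.54.

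The comparison of sgHNRNPC with sgControl asked how the same genes respond to lower HNRNPC RNA. No member was called in RNA, where 16% of the 4283 genes tested were called (202 higher and 482 lower, or 229 and 301 after quantile normalisation). The RNA changes of the members lay between -0.11 and 0.11 on the log2 scale.

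PABPC4 RNA was 1098 and 1099 in sgControl and 1185 and 1180 in sgHNRNPC, higher in both knockdown libraries. The change was 0.11 ± 0.05 (95% interval -0.0002 to 0.21) with an adjusted p of 0.180 by limma. PABPC1 RNA was 9743 and 9664 in sgControl and 9960 and 10462 in sgHNRNPC, a change of 0.07 ± 0.04 (adjusted p 0.190 by limma), also without overlap; it passed the threshold after quantile normalisation, at 0.09 with an adjusted p of 0.0337. PAIP2 RNA was 692 and 664 in sgControl and 621 and 639 in sgHNRNPC, lower in both, a change of -0.11 ± 0.07 (adjusted p 0.304 by limma). PABPN1 was 377 and 425 against 412 and 455, and PAIP1 was 666 and 620 against 640 and 635, with overlapping libraries.

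RPF values in this table were lower and their replicates farther apart. PABPC4 RPFs were 39.6 and 55.1 in sgControl and 43.2 and 26.9 in sgHNRNPC, which overlapped. The change was -0.44 ± 0.23 (95% interval -0.92 to 0.04) (limma, adjusted p 0.701). Leaving out a lysate moved it to between -0.77 and -0.11. PABPC1 was 64.4 and 79.5 against 76.3 and 91.9, PABPN1 11.4 and 17.7 against 16.1 and 15.7, and PAIP1 22.5 and 17.2 against 19.3 and 23.6. PAIP2 was 13.9 and 17.7 in sgControl and 23.9 and 17.8 in sgHNRNPC, a change of 0.37 ± 0.31 (95% interval -0.27 to 1.01). No member was called in RPF, where 0.0233% of genes, 1 of 4283, were called, and none in TE, where 0% were called, with 332 genes at an unadjusted p under 0.05 and 11 called by logistic regression. The TE changes furthest from 0 were -0.55 ± 0.30 for PABPC4 (95% interval -1.23 to 0.14) and 0.48 ± 0.26 for PAIP2 (-0.10 to 1.06), each with an adjusted p of 0.642 by limma. With a lysate left out they ranged from -0.88 to -0.22 for PABPC4 and from 0.26 to 0.70 for PAIP2.

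The difference between the 2 comparisons was tested directly. The RNA change of PABPC4 was lower in MDA-LM2 than after the knockdown by 0.65 (log2 difference -0.65 ± 0.10; 95% interval -0.87 to -0.42), with an adjusted p of 0.00281 by limma. PABPC4 was the 1 of 5 members called, where 14.8% of 4280 genes were called (245 higher and 390 lower, or 513 and 215 after rescaling to equal totals). It was also called with equal totals and with the replicate block, and the difference ranged from -0.69 to -0.46 over 10 alternatives. This fit took 1 spread per gene over the replicates of both pairs of lines. Its SE for PABPC4 (0.101) was below that of the MDA-LM2 change alone (0.106). PABPC1 had a difference of 0.40 ± 0.14 (limma, adjusted p 0.0760). The differences in RPF had no member called, where 2.5% of genes were called (35 higher and 72 lower, or 48 and 58 after rescaling to equal totals). In TE the differences of PABPC4 (0.76 ± 0.35, unadjusted p 0.0459) and PABPC1 (-0.58 ± 0.24, unadjusted p 0.0266) had adjusted p-values of 0.850 and 0.819 by limma, where 0% of genes were called and 251 had an unadjusted p under 0.05.

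A ratio of 2 genes in a single library does not depend on how libraries were scaled. Per kilobase, PABPC4 RNA was 0.324 and 0.282 of PABPC1 RNA in parental cells, 0.164 and 0.136 in MDA-LM2, 0.103 and 0.104 in sgControl, and 0.108 and 0.103 in sgHNRNPC. The ratio in MDA-LM2 was 0.494 of that in parental cells, with an exact permutation p of 0.3333, the smallest that 2 against 2 libraries can give. In RNA, parental cells thus had the highest ratio of the 4 lines, and the sgControl cells, also of MDA-MB-231 origin, had a ratio below that of MDA-LM2. The order differed in RPFs, where sgControl had the highest mean ratio (0.630, against 0.456 in parental and 0.350 in MDA-LM2 cells). In RPFs the ratio was 0.472 and 0.440 in parental, 0.335 and 0.365 in MDA-LM2, 0.592 and 0.668 in sgControl, and 0.546 and 0.282 in sgHNRNPC.

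**Figure D3:**
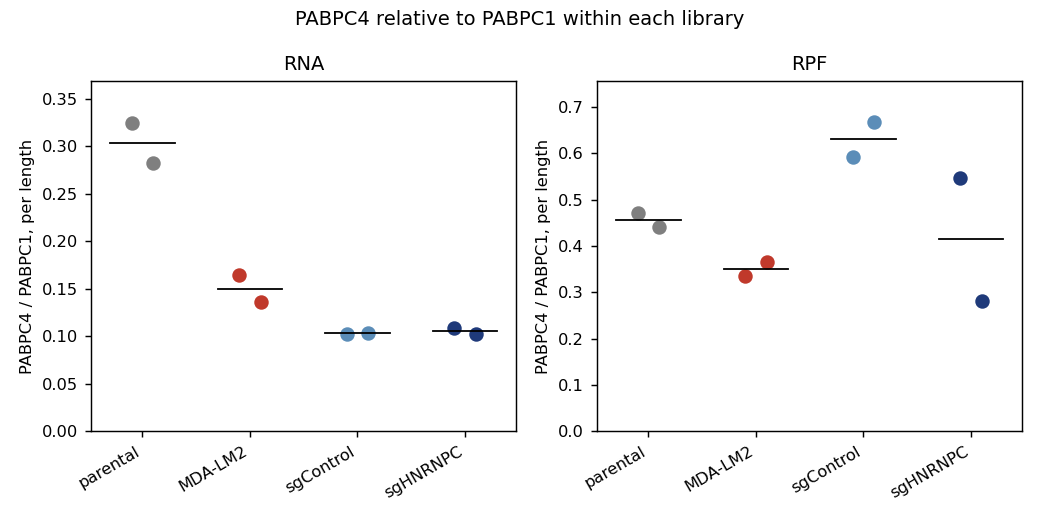
Ratio of PABPC4 to PABPC1 per kilobase (y axis) in the RNA (left) and RPF (right) libraries of each line (x axis); points are single libraries and black lines are means of 2. The RNA ratio is 0.324 and 0.282 in parental and 0.164 and 0.136 in MDA-LM2 cells.

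The inhibitor to activator ratio PAIP2 to PAIP1, per kilobase of mRNA, was 2.60 and 2.64 in parental, 2.68 and 2.72 in MDA-LM2, 1.98 and 2.05 in sgControl, and 1.85 and 1.92 in sgHNRNPC. The log2 differences were 0.04 and -0.09 in the 2 comparisons, each with an exact permutation p of 0.3333, the smallest possible. In RPFs, per kilobase of coding sequence, the signs were opposite. The ratio was 3.52 and 3.56 in parental and 3.05 and 3.18 in MDA-LM2 cells, a difference of -0.18 without overlap, and 2.32 and 3.87 in sgControl and 4.65 and 2.82 in sgHNRNPC, a difference of 0.27 with overlap. Both PAIP genes together amounted to 0.220 and 0.192 of both cytoplasmic PABP genes in parental RNA and to 0.180 and 0.151 in MDA-LM2 RNA. The same sum in the knockdown pair was 0.190 and 0.182 in sgControl and 0.170 and 0.165 in sgHNRNPC, lower in both knockdown libraries. The RNA differences were -0.32 in MDA-LM2 and -0.15 after the knockdown. In RPFs the sum was 0.585 and 0.662 in parental and 0.694 and 0.623 in MDA-LM2 cells, which overlapped (0.08), and 0.965 and 0.838 in sgControl and 1.23 and 1.02 in sgHNRNPC, higher in both knockdown libraries (0.31, exact permutation p of 0.3333).

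TE was then ranked among all genes. TE per length, RPF per kilobase of coding sequence over RNA per kilobase of mRNA, was below the median gene for PABPC1, PABPC4 and PABPN1 in all 4 lines. PABPC1 lay at percentile 14.1 in parental cells, 7.1 in MDA-LM2 and 0.2 in both sgControl and sgHNRNPC. In sgControl 9 of 4190 genes had a lower TE than PABPC1, and in sgHNRNPC 8 had. Relative to the median gene, the TE of PABPC1 was 0.370 and 0.272 in parental and MDA-LM2 cells and 0.105 and 0.113 in sgControl and sgHNRNPC.

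Genes with abundant RNA had a low TE in these tables generally. RNA is the divisor of TE, so choosing genes by high RNA itself favours a low TE, and how much was not measured. The 411 genes in the top 5% of RNA per kilobase had a median TE of 0.399 of that of all genes in parental cells, and 190 of them lay below PABPC1. In sgControl the median of the 210 such genes was 0.531 of that of all genes, and 1 of the 210 lay below PABPC1. The other TOP mRNAs listed had median percentiles of 22.6, 18.3, 18.2 and 20.3 over 12 genes in the 4 lines, with ranges from 1.8 to 99.1 in sgControl. Among them EIF4B, an initiation factor, lay at 7.7 in parental cells and 1.8 in sgControl. EEF1B2, an elongation factor subunit, lay at 18.8 and 3.0. Others of the list lay high, with EIF3F at 93.5 and 99.1 and EIF3H at 90.6 and 82.0 in the same 2 lines. Summing PABPC1 with PABPC3, which shares 8.0% of its 50-base windows of mRNA and 22.4% of its 33-base coding windows with PABPC1, left PABPC1 at percentile 17.0, 8.9, 0.4 and 0.3.

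The other members stood higher in TE. PABPC4 lay at percentile 26.9, 30.5, 25.5 and 11.7 in parental, MDA-LM2, sgControl and sgHNRNPC cells, and PABPN1 at 25.3, 20.6, 27.6 and 27.2. PAIP2 lay at 62.6, 62.1, 39.4 and 57.5, and PAIP1 at 50.1, 55.7, 19.4 and 22.4. PABPN1 values are uncertain because 32.1% of its 50-base mRNA windows and 60.6% of its 33-base coding windows also occur in the read-through transcript BCL2L2-PABPN1, which is listed separately. With both summed, the RPF change of PABPN1 after the knockdown was -0.37 (adjusted p 0.771 by limma) in place of 0.15, and its TE change -0.52 (0.627) in place of 0.04. PABPC4, PAIP1 and PAIP2 shared no window with another listed transcript.

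**Figure D4:**
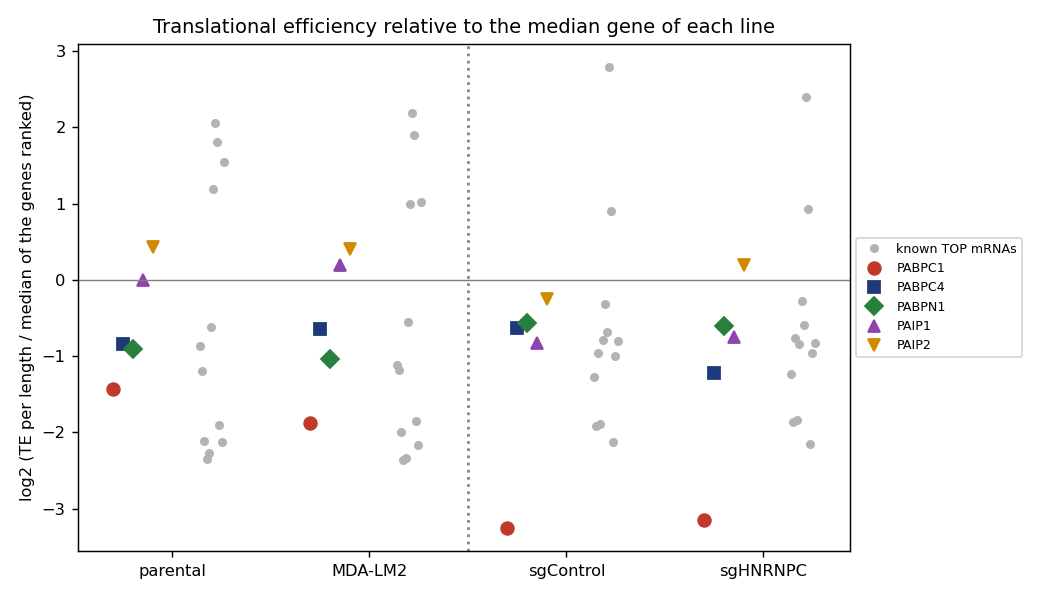
Log2 of TE per length relative to the median gene (y axis) in each line (x axis), from the means of 2 RPF and 2 RNA libraries. Coloured symbols are the 5 genes and grey points the 12 other known TOP mRNAs. PABPC1 is at 0.105 of the median in sgControl, below all TOP mRNAs shown there.

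The other genes of the poly(A) pathway were read from fixed lists. Of all 8393 genes tested in MDA-LM2, 15.2% were called in RNA and 12% in RPF. Of 15 tested partners of poly(A)-binding protein, 1 rose and none fell in RNA of MDA-LM2, with a median change of -0.04 against -0.02 for all genes tested. The riser was GSPT2, a relative of the release factor eRF3, at 27.7 and 21.0 in parental and 79.9 and 54.1 in MDA-LM2 cells, a change of 1.41 ± 0.27 (adjusted p 0.0168 by limma). In RPFs 1 partner fell, TOB1, which recruits deadenylases, from 27.8 and 39.3 to 15.997 and 17.97, a change of -0.92 ± 0.28 (adjusted p 0.0277 by limma). None of 12 deadenylases was called in RNA or RPF, and their median RNA change was 0.07. Of 7 poly(A) polymerases and terminal uridylyltransferases none was called in RNA, with a median change of 0.31. In RPFs TUT7, which adds uridines to RNA ends, rose from 31.2 and 31.2 to 54.1 and 59.9, a change of 0.85 ± 0.21 (adjusted p 0.00546 by limma).

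Of the 12 tested TOP mRNAs none was called in RNA of MDA-LM2, with a median of -0.03 against 0.48 for PABPC1. In RPFs HNRNPA1 fell by 0.28 ± 0.09 (adjusted p 0.0412 by limma). After the knockdown, 1 of 9 partners, 1 of 6 deadenylases and 1 of 12 TOP mRNAs were called in RNA, where 16% of all 4283 genes were called. GSPT1, the release factor eRF3a, fell from 1278 and 1250 to 970 and 951, a change of -0.40 ± 0.05 (adjusted p 1.72e-08 by limma). CNOT8, a deadenylase of the CCR4-NOT complex, fell from 309 and 287 to 245 and 241, a change of -0.29 ± 0.10 (adjusted p 0.0367 by limma). TPT1 rose by 0.14 ± 0.04 (adjusted p 0.00646 by limma), and no gene of these lists was called in RPF or TE after the knockdown. The relatives PABPC3 and ZC3H14 were called in neither comparison.

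**Figure D5:**
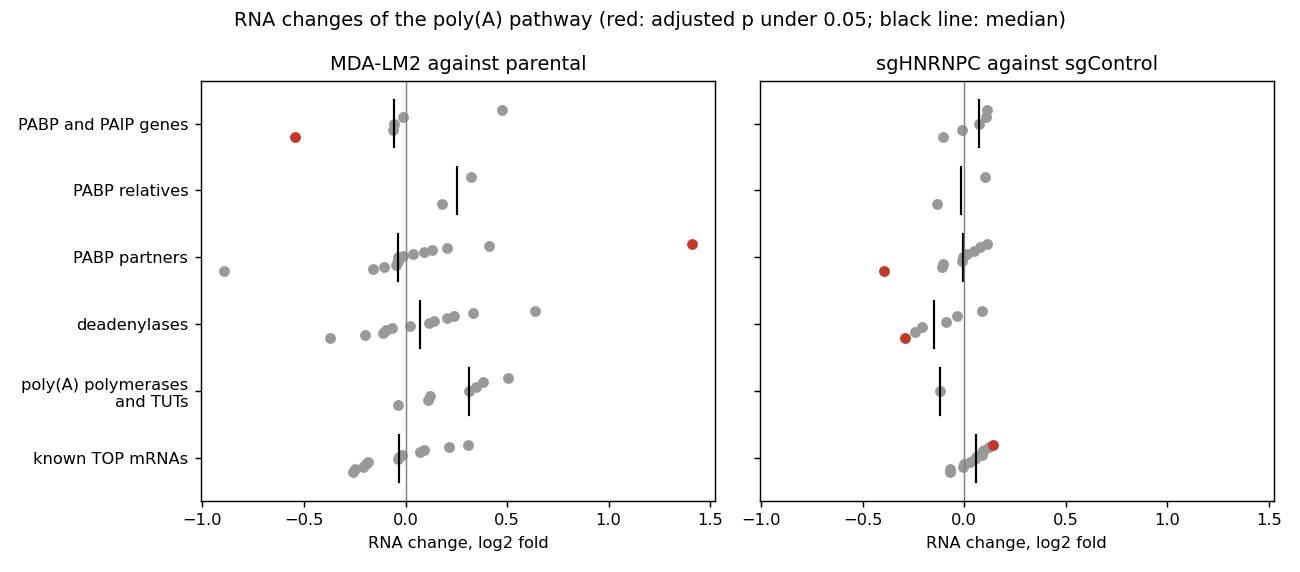
Log2 RNA change (x axis) of each tested gene of the poly(A) pathway lists (y axis) in MDA-LM2 against parental (left) and sgHNRNPC against sgControl (right); red points have an adjusted p under 0.05 and black lines are medians. PABPC4 and GSPT2 are the red points on the left, at -0.54 and 1.41.

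The genes with the most similar pattern over all 16 libraries were sought among the 4280 genes above the filter in both tables, as the root mean square difference of log2 values centred within each table and kind of library. For PABPC4 they were IRS1 (0.0950), an adaptor of the insulin receptor, SLC39A8 (0.113), a metal transporter, and FUCA2 (0.116), a fucosidase, against a median of 0.300 over all genes. IRS1 RNA was 3350 and 3193 in parental and 2331 and 2032 in MDA-LM2 cells, and 998 and 1035 in sgControl and 1091 and 1155 in sgHNRNPC. For PABPC1 they included the initiation factor gene EIF3E (0.0699) and PDIA3 (0.0851), a protein disulphide isomerase, against a median of 0.247. EIF3E RNA was 790 and 894 in parental and 982 and 1102 in MDA-LM2 cells, the same order of groups as PABPC1.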

How the data were processed

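The 5 genes and all gene lists were chosen with earlier results of these data known. Per the labels, RNA-seq (a stranded total RNA kit) and Ribo-seq libraries came from the same lysates; the study calls its sequencing replicates biological duplicates. The authors trimmed reads with cutadapt 2.3, removed duplicates by molecular identifiers and aligned with Bowtie2 2.3.5 to 1 transcript per gene, that with the longest coding sequence, on hg38. The deposited values are normalised counts (a signal on a linear scale, coverage per transcript), scaled separately per table and kind of library. Whether RPF counts were first corrected for stalling peaks, an option of the methods, is not given in the sources used here. Transcripts were named through GENCODE; 97.9% matched in each table.

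Normalised counts were tested as log2(value + 1) with limma 3.58.1 (R 4.3.3; lmFit, eBayes with trend, two-sided), for genes whose RNA mean and RPF mean both reached 10, with Benjamini-Hochberg adjustment over all genes and a threshold of 0.05. RNA and RPF were fitted separately, TE as the interaction over 8 libraries, and the difference of both comparisons over all libraries. Changes are on the log2(value + 1) scale. The fit was tested on simulated data. Named genes were the 5 members, HNRNPC, called genes of each pathway list (at most 4 per list, measure and comparison) and the 3 genes most alike PABPC4 and PABPC1, of which 1 is not reported here. Alternatives covered the added value (0.5, 5), the filter (none, 50), 2 scalings, robust moderation, a replicate block, leaving out each lysate, summing genes that share reads, and the logistic regression of the study.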

Additional observations from a re-analysis of the deposited data

Results flagged for a closer look

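The RNA change of PABPC4 differed between the 2 comparisons by a test of the difference itself. It was -0.54 in MDA-LM2 against parental cells and 0.11 in sgHNRNPC against sgControl cells, a difference of -0.65 ± 0.10 with an adjusted p of 0.00281 by limma over 4280 genes. PABPC4 RNA was lower in both MDA-LM2 libraries than in both parental libraries and higher in both sgHNRNPC libraries than in both sgControl libraries. That lack of overlap is a description only. By the main test the change in MDA-LM2 was called and the change after the knockdown was not.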

How the results depend on the processing

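Of 5 members, 1 was called in RNA of MDA-LM2. After rescaling to equal totals, after quantile normalisation and with the replicate block, 2 were called. Leaving out a lysate left 1 library in a group, and calls over all genes then moved widely, as given below. Members called in those fits are therefore not counted here, although PABPC4 was not called when either parental lysate was left out. The second member was PABPC1, which the main test did not call (adjusted p 0.0575 by limma). Its change ranged from 0.377 to 0.70 over 13 alternatives, and from 0.377 to 0.575 with a lysate left out. The block also added 1 member (PABPC4) in RPF of MDA-LM2, logistic regression 1 (PABPC1) in TE of MDA-LM2, and quantile normalisation 1 (PABPC1) in RNA of the knockdown, where the main test called none. In the difference of RNA changes 2 were called in place of 1 with equal totals and with the block. With a lysate left out, that difference ranged from -0.685 to -0.612 for PABPC4 and from 0.304 to 0.502 for PABPC1. PABPC4 in RNA of MDA-LM2 ranged from -0.58 to -0.51 with a lysate left out.

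The replicate numbers of the labels were checked for pairing. The correlation across genes of the difference between replicates 1 and 2 was 0.234 between parental and MDA-LM2 RNA, 0.0443 in RPF, and -0.0038 and 0.0281 in the knockdown table. Between RNA and RPF of the same line it was 0.139 in MDA-LM2 and at most 0.0228 in the other lines. MDA-LM2 RNA thus correlated with both of its partners and the other pairs did not reach 0.1, so the numbers were not taken to pair the samples. With the replicate block the RNA change of PABPC4 in MDA-LM2 was -0.54 (adjusted p 0.00991 by limma), that of PABPC1 0.48 (0.0292) and the RPF change of PABPC4 -0.33 (0.0387). It moved no other call of a member except PABPC1 in the difference of RNA changes.

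Directions turned in results that the main test did not call. With equal totals the RNA changes in MDA-LM2 were 0.11 (PABPN1), 0.16 (PAIP2) and 0.12 (PAIP1), the RPF change of PAIP2 0.0297, and the differences 0.0133 (PABPN1, RNA), 0.15 (PAIP1, RNA) and -0.0236 (PAIP1, TE). With quantile normalisation PABPN1 and PAIP2 were 0.0405 and 0.0396 in RNA of MDA-LM2 and PAIP1 0.03 in RNA of the knockdown. Summing PABPN1 with its read-through gave -0.37 in RPF and -0.52 in TE of the knockdown. With a lysate left out, ranges in MDA-LM2 were -0.17 to 0.0472 (PABPN1, RNA), -0.0544 to 0.0313 (PAIP2, RNA), -0.13 to 0.0808 (PAIP2, RPF), -0.28 to 0.064 (PABPN1, TE) and -0.14 to 0.11 (PAIP2, TE). In the knockdown they were -0.0651 to 0.0394 (PAIP1, RNA), -0.15 to 0.44 (PABPN1, RPF), -0.0685 to 0.30 (PAIP1, RPF), -0.17 to 0.25 (PABPN1, TE), -0.0188 to 0.27 (PAIP1, TE) and -0.0048 to 0.31 (PABPC1, TE). For the differences they were -0.0948 to 0.0116 (PAIP1, RNA), -0.14 to 0.22 (PAIP1, RPF), -0.22 to 0.44 (PABPC4, RPF), -0.35 to 0.0666 (PABPN1, TE) and -0.0621 to 0.23 (PAIP1, TE). The causes were not tested. The planned count tests of RNA reads were not run, because whole reads were not established.

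Calls over all genes moved more. A minimum mean of 50 left 440 calls of 3511 genes in RNA of MDA-LM2 (main 1279) and 228 of 669 in RNA of the knockdown (684). With a lysate left out, calls ranged from 492 to 4235 in RNA, with fewest without parental replicate 1, 641 in RPF without MDA-LM2 replicate 2 (1010), and 0 to 7 in TE of MDA-LM2 (3). They fell to 371 in RNA of the knockdown without sgHNRNPC replicate 2 and ranged from 0 to 41 in its RPF (1). They ranged from 227 to 1982 in the differences of RNA changes (635), from 28 to 382 of RPF changes (107) and reached 11 of TE changes (0). In TE of MDA-LM2, no filter, equal totals, quantile normalisation and TE within each lysate gave 0, the block 5 and logistic regression 181. In RPF of the knockdown, no filter gave 0, equal totals and robust moderation 2 each, quantile normalisation 4 and the block 12, and in its TE logistic regression gave 11.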
